A study of Homo sapiens with 14 samples.

Results

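The AP-1 and immediate early genes described here are FOS, FOSB, FOSL1, FOSL2, JUN, JUNB, JUND, ATF3, EGR1 and IER2, 10 of the 25952 genes in the count table, each found by its Ensembl identifier. Their RNA was measured in 14 sequenced libraries of NT2, an established line of human embryonal carcinoma cells, which are malignant stem cells able to differentiate in culture. The 7 groups of 2 libraries were untreated cells at day 0, cells after 5, 10 and 21 days of all-trans retinoic acid (RA, used to induce neurons, final 10 µM, dissolved in DMSO), and cells after 5, 10 and 21 days of BMP2 (a bone morphogenetic protein, used to induce muscle cells). BMP2 was first tried at 30 ng/ml and later used at 40 ng/ml, and the labels do not give the dose of each library. No later untreated or DMSO culture was analysed here, so the factor and the time in culture cannot be told apart in any comparison with day 0. Separate cultures are not stated in the labels for the 2 libraries of a group, so every error below measures the spread between libraries, which may be technical. The genes were chosen with their values in these libraries known, so their levels and fold changes are given as a description, with no test.

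AP-1 is a family of dimers built from basic leucine zipper (bZIP) proteins. A Jun protein pairs with a Fos protein or with another Jun, while Fos proteins do not pair stably with each other, and the pair binds short palindromic DNA sites. Most of these genes are immediate early genes: their transcription starts within minutes of a growth factor, serum, calcium or stress signal and needs no new protein, and their RNA is usually short-lived. The signal reaches them largely through serum response factor (SRF) with its ternary complex partners at CArG boxes, and through CREB and ATF proteins at cyclic AMP response elements. ATF3 is a stress-induced bZIP protein, EGR1 a zinc finger factor, and IER2 a small nuclear protein of the same early response. Since the response is brief, RNA taken days after a treatment began and at an unstated time after the last medium change is a level at harvest.

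Promoter windows from RefSeq (build GRCh38.p14, 250 bases before to 50 bases after each annotated start) were at hand for 9 of the 10 genes, in 10 windows, 2 of them for ATF3. The stretches below are shown because they hold the letters through which these signals are known to act, with the match in capitals, read 5′ to 3′ on the gene's strand. Positions count back from the annotated start, with -1 the base before it. Only the motif named for a stretch is in capitals. The EGR1 stretch also holds TGACGT on its other strand, read here as ACGTCA from -67. The counts were mapped by the authors to another build, so these coordinates belong to the RefSeq windows alone.
EGR1, chr5:138465360-138465419, CArG boxes from -105 and -83: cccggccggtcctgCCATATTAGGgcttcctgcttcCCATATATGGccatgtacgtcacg
FOS, chr14:75278752-75278781, TGACGT from -64: tggttgagcccgTGACGTttacactcattc
FOSB, chr19:45467924-45467953, TGACGT from -60: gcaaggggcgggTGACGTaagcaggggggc
FOSL2, chr2:28392780-28392809, TGACGT from -66: ggagtctggggtTGACGTgagtgaatccac
JUND (minus strand), chr19:18281804-18281833, TGACGTCA from -200: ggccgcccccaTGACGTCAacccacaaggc
JUN (minus strand), chr1:58784096-58784125, TGACATCA from -67: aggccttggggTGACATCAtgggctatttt
ATF3 (the upstream of its windows), chr1:212565273-212565302, TGACATCA from -123: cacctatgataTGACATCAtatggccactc

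Both strands of all 35116 windows of 300 bases were searched for the same letters. TGACGT, the core of the cyclic AMP response element, was in 7.98% of all windows and in those of 5 of these genes, FOS, FOSB, FOSL2, JUND and EGR1. The full element TGACGTCA, which contains TGACGT, was in 1.85% of all windows and in that of JUND. The variant TGACATCA was in 2.61% of all windows and in those of JUN and ATF3. The AP-1 site TGACTCA was in 4.95% of all windows and in that of FOSL2, and the CArG box was in 1.29% of all windows and in that of EGR1. No match for a gene says only that these letters are not in its window.

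Levels are CPM, counts scaled to a common library size with TMM (trimmed mean) factors. The libraries held 45773278 to 75754396 counts. Between 66.0% and 73.5% of the counts from 1 to 19 were even, so low counts carry more error than their number implies. A table of log2 CPM over 19142 tested genes gave a correlation of 0.964 to 0.990 between the 2 libraries of a group, except for BMP2 day 10 with 0.918. Of those 2, replicate 1 had its highest r with BMP2 day 5 replicate 2 (0.981), and replicate 2 with BMP2 day 21 replicate 2 (0.966). The value for the day 5 library with its own partner was lower, 0.971, and RA day 10 replicate 2 was slightly closer to RA day 5 replicate 1 (0.968) than to its own (0.964). The 5 embryonal carcinoma markers (POU5F1, SOX2, NANOG, LIN28A, TDGF1) summed to 4418 and 5010 CPM at day 0, to 22.5 and 24.8 at RA day 21 and to 14.98 and 22.3 at BMP2 day 21. At BMP2 day 10 the sums were 734 in replicate 1 and 12.6 in replicate 2. The 5 neuron markers measured, of 6 listed, reached 531 to 1046 CPM at RA days 10 and 21 against 68.0 and 85.2 at day 0, although STMN2 was at 0.478 and 0.162 at RA day 21. The 5 smooth muscle markers reached 338 to 1278 CPM with BMP2 against 35.3 and 88.8 at day 0, while MYH11, the smooth muscle myosin heavy chain, was at most 15.3 CPM. In the BMP2 day 21 libraries 5 fibroblast markers, led by COL3A1, summed to 32873 and 31426 CPM. Their sum was 5539.5 and 5581.8 at RA day 21, above the neuron sum there, and 22.4 and 32.5 at day 0. At BMP2 day 10 it was 1557.7 in replicate 1 and 13639 in replicate 2. These are bulk samples, so fewer cells of a type and less RNA per cell cannot be told apart.

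JUND and JUN were the most abundant of the 10 per length. Mean CPM per kb of exon over the 14 libraries was 63.6 for JUND and 31.0 for JUN, then 14.7 for ATF3, 13.9 for FOSL2, 9.24 for IER2, 8.58 for JUNB, 5.15 for FOSL1, 3.90 for EGR1, 2.97 for FOS and 0.850 for FOSB. Per kb of the whole gene span, the length that the deposited RPKM use, JUND at 63.3 and JUN at 33.1 were still first and FOSB at 0.657 last. ATF3 then moved to 1.07, since most of its span is intron. Of the 10 genes, 4 were higher in all 12 treated libraries than in both untreated ones: FOSB, JUN, JUNB and JUND. Of all tested genes 13.1% did so, and 14.7% were lower in all 12, as none of these 10 was.

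**Figure D1:**
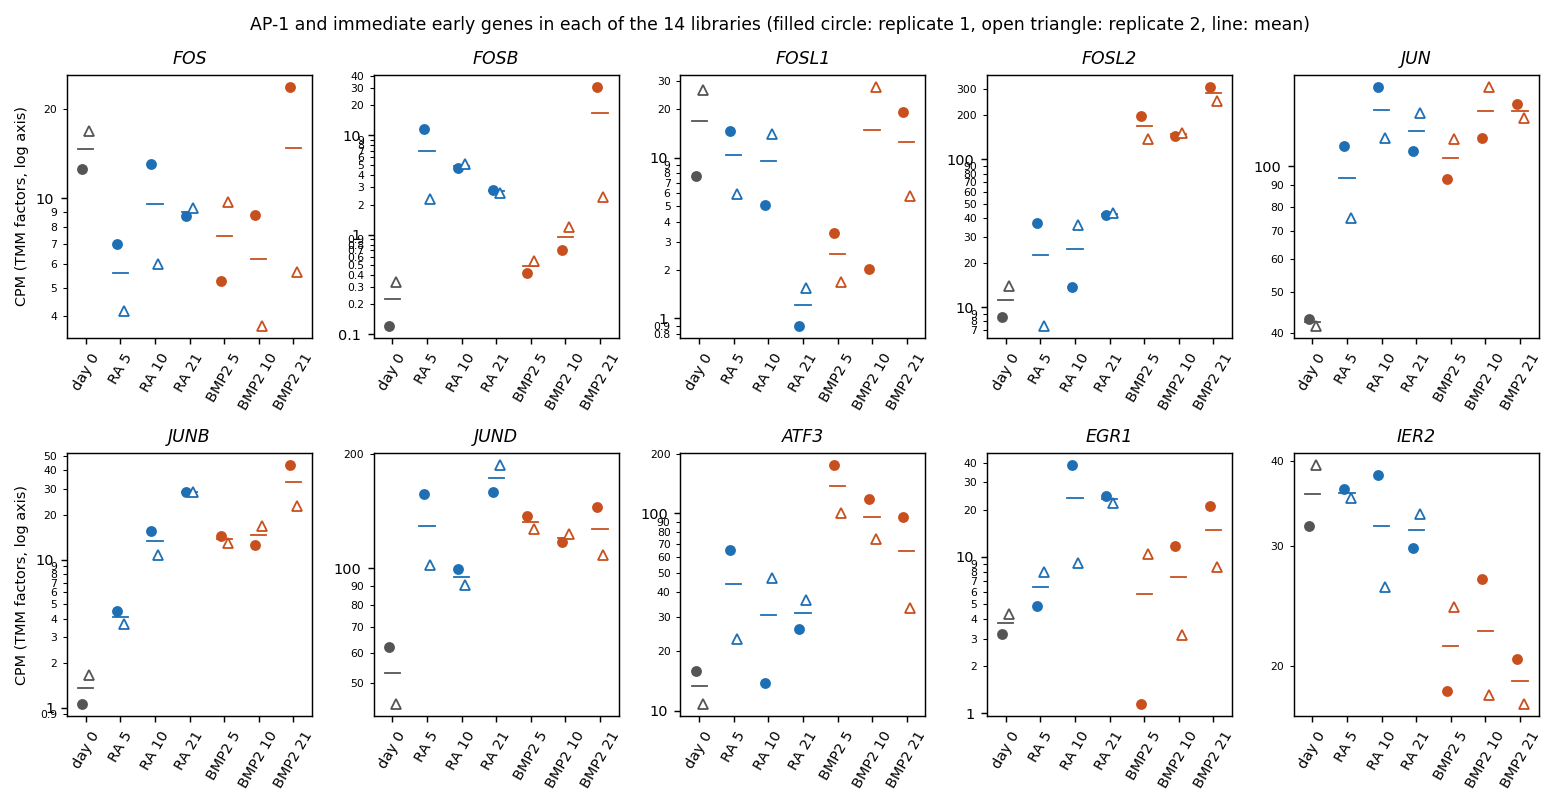
CPM (TMM factors, log axis) of the 10 genes in every library, by group, with filled circles for replicate 1, open triangles for replicate 2 and a line at the mean of the 2. JUN, JUNB, JUND and FOSB lie above day 0 in all 12 treated libraries, FOSL2 is highest in the 6 BMP2 libraries, and the symbols of FOSB, FOSL1 and EGR1 lie far apart within several groups.

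FOS, the founding partner of JUN and the classic serum-response gene, was low throughout. Its level was 12.5 and 16.8 CPM in the untreated libraries. With RA it was 6.998 and 4.17 (day 5), 13.1 and 6.02 (day 10) and 8.73 and 9.27 (day 21). With BMP2 it was 5.25 and 9.68 (day 5), 8.76 and 3.71 (day 10) and 23.8 and 5.63 (day 21). Thus 10 of the 12 treated libraries were below both untreated ones, 1 lay between them (RA day 10 replicate 1), and BMP2 day 21 replicate 1 was the highest of all 14. The fitted log2 differences from day 0 ran from -1.39 ± 0.68 (SE, n = 2 per group) at RA day 5 to 0.01 ± 0.66 at BMP2 day 21, where the 2 libraries stood on either side of both untreated ones. Here and below, each SE rests on the gene's spread over all 7 groups, so it is not the spread of the 2 groups compared.

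FOSB, a Fos protein best known from neurons and bone, had few reads before treatment, 6 and 24 counts or 0.122 and 0.334 CPM. The RA libraries were all above 2 CPM, with 11.7 and 2.30 (day 5), 4.70 and 5.16 (day 10) and 2.85 and 2.63 (day 21). With BMP2 it was 0.419 and 0.550 (day 5), 0.710 and 1.21 (day 10) and 31.0 and 2.39 (day 21). Every treated library was above both untreated ones, but BMP2 day 5 was nearest to them and a single library, BMP2 day 21 replicate 1, held the maximum. Fitted log2 differences from day 0 were 4.89 ± 1.18, 4.39 ± 1.16 and 3.54 ± 1.12 for RA, and 1.05 ± 1.10, 2.02 ± 1.09 and 6.15 ± 1.24 for BMP2 at days 5, 10 and 21 (SE). In GENCODE v29 the whole of FOSB lies inside the span of ERCC1 on the opposite strand, and no source used here states whether the counting used strand. ERCC1 was at 17.0 to 19.4 CPM at day 0 and 27.1 to 39.7 in the treated libraries, and reads of the 2 genes were not separated. The part of ERCC1 reads in the FOSB counts was not tested. FOSB ranged over 255 times, from the 6 counts of untreated replicate 1 to the single high library, BMP2 day 21 replicate 1.

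FOSL1 (Fra-1), a Fos protein without a transactivation domain and an AP-1 subunit of migrating and mesenchymal cells, differed most between replicates. The untreated libraries were at 7.67 and 26.3 CPM. RA libraries were at 14.8 and 5.95 (day 5), 5.08 and 13.99 (day 10) and 0.896 and 1.54 (day 21). BMP2 libraries were at 3.39 and 1.68 (day 5), 2.04 and 27.8 (day 10) and 19.2 and 5.77 (day 21). The RA day 21 and BMP2 day 5 pairs lay wholly below day 0, with log2 differences of -3.80 ± 1.20 and -2.75 ± 1.15 (SE), while RA days 5 and 10 and BMP2 days 10 and 21 overlapped it. The higher library at BMP2 day 10 was 13.6 times the lower one, a gap that 3.59% of tested genes matched in that group.

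FOSL2 (Fra-2), the close relative of FOSL1, separated the treatments most clearly. It stood at 8.56 and 13.9 CPM untreated. RA gave 37.2 and 7.45 (day 5), 13.7 and 35.7 (day 10) and 41.8 and 43.4 (day 21). BMP2 gave 197 and 138 (day 5), 143 and 151 (day 10) and 310 and 249 (day 21). All 6 BMP2 libraries were above all 6 RA libraries, and RA overlapped day 0 at days 5 and 10 but not at day 21. The log2 difference from day 0 was 3.90 ± 0.70, 3.71 ± 0.69 and 4.64 ± 0.72 with BMP2 and 0.99 ± 0.63, 1.14 ± 0.63 and 1.92 ± 0.64 with RA at days 5, 10 and 21 (SE). RA minus BMP2 on the same days was -2.91 ± 0.67, -2.57 ± 0.66 and -2.71 ± 0.66. In order of mean level the groups ran from day 0 through RA days 5, 10 and 21 to BMP2 days 10, 5 and 21. Libraries of neighbouring groups overlapped from day 0 to RA day 10 and between BMP2 days 5 and 10.

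JUN, the Jun protein that drives most AP-1 target genes and is required for much of their growth response, had the tightest untreated pair, 43.1 and 41.5 CPM. With RA it was at 112 and 75.2 (day 5), 155 and 117 (day 10) and 109 and 134 (day 21). With BMP2 it was at 93.0 and 116 (day 5), 117 and 154 (day 10) and 141 and 130 (day 21). All 12 treated libraries were above both untreated ones, and the RA and BMP2 pairs overlapped on each of the 3 days. Its log2 difference from day 0 lay between 1.15 ± 0.24 (RA day 5) and 1.69 ± 0.24 (RA day 10), and RA minus BMP2 was within 0.16 of 0 on each day, less than its SE of 0.23.

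JUNB, a weaker activator that can oppose JUN at some promoters, was almost silent untreated, at 1.05 and 1.66 CPM. With RA it was at 4.50 and 3.65 (day 5), 15.7 and 10.8 (day 10) and 28.7 and 28.8 (day 21), so that the pairs of later days lay wholly above those of earlier ones. BMP2 gave 14.5 and 13.0 (day 5), 12.6 and 16.9 (day 10) and 43.7 and 22.9 (day 21). BMP2 was thus above RA at day 5 (RA minus BMP2, -1.76 ± 0.35 on the log2 scale), and the pairs overlapped at days 10 and 21. The log2 differences from day 0 were 1.58 ± 0.36, 3.28 ± 0.38 and 4.40 ± 0.39 with RA and 3.33 ± 0.38, 3.44 ± 0.38 and 4.61 ± 0.40 with BMP2 (SE). JUNB too lies wholly inside another gene of the opposite strand, HOOK2, which was at 6.74 and 8.11 CPM untreated and 7.47 to 17.5 in the treated libraries. Reads of the 2 genes were not separated.

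JUND, the most constitutive Jun protein, was at 62.0 and 43.9 CPM untreated. It was at 157 and 102 at RA day 5, 99.4 and 90.4 at RA day 10, and 159 and 187 at RA day 21. BMP2 gave 137 and 127 (day 5), 117 and 123 (day 10) and 145 and 109 (day 21). All 12 treated libraries were higher than day 0, with RA day 10 the lowest pair and RA day 21 the highest. Log2 differences from day 0 ran from 0.84 ± 0.24 to 1.71 ± 0.24 (SE).

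ATF3 was highest early in BMP2. Untreated libraries were at 15.9 and 10.8 CPM. BMP2 gave 175 and 99.8 (day 5), 118 and 73.7 (day 10) and 95.6 and 33.3 (day 21), and RA gave 64.8 and 23.0 (day 5), 13.9 and 47.0 (day 10) and 25.8 and 36.4 (day 21). In all, 11 of 12 treated libraries were above both untreated ones, RA day 10 replicate 1 being the exception. The mean was lower with each later BMP2 day, but the pairs of days 5 and 10 overlapped, as did those of days 10 and 21. Log2 differences from day 0 were 3.37 ± 0.74, 2.84 ± 0.72 and 2.27 ± 0.71 with BMP2 and 1.72 ± 0.70, 1.19 ± 0.69 and 1.22 ± 0.69 with RA (SE).

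EGR1, whose product is held back by the corepressors NAB1 and NAB2, was at 3.20 and 4.31 CPM untreated. RA gave 4.84 and 8.02 (day 5), 38.9 and 9.09 (day 10) and 24.5 and 22.2 (day 21), all 6 above both untreated libraries. BMP2 gave 1.14 and 10.5 (day 5), 11.7 and 3.17 (day 10) and 21.1 and 8.56 (day 21). Both the lowest of the 14 libraries (BMP2 day 5 replicate 1) and a 9.19-fold gap between replicates were in the BMP2 day 5 pair, a gap matched by 1.14% of tested genes there. The RA day 21 pair differed by 1.10 times, and its log2 difference from day 0 was 2.63 ± 1.02 (SE from the spread over all groups).

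IER2 varied least of the 10, over 2.25 times. It was at 32.2 and 39.5 CPM untreated, 36.4 and 35.4 at RA day 5, 38.2 and 26.1 at RA day 10, and 29.9 and 33.5 at RA day 21. With BMP2 it was at 18.4 and 24.5 (day 5), 26.9 and 18.1 (day 10) and 20.5 and 17.6 (day 21). All 6 BMP2 libraries were below both untreated ones, while each RA pair overlapped them. Log2 differences from day 0 were -0.74 ± 0.25, -0.67 ± 0.25 and -0.91 ± 0.25 with BMP2 (SE), opposite in sign to those of FOSL2, ATF3 and the Jun genes. An antisense RNA covers 25.0% of its span and was not separated.

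**Figure D2:**
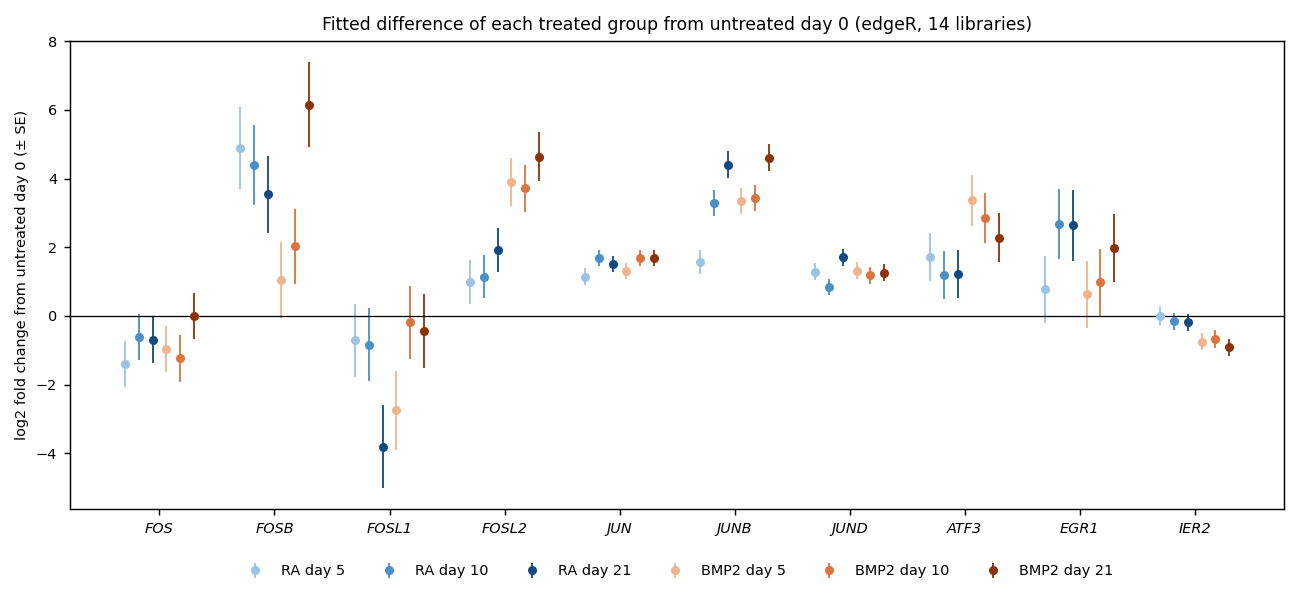
Fitted log2 fold change of each gene from untreated day 0 (edgeR, points) with its SE (bars), in blue for RA and orange for BMP2, darker with time. JUN, JUNB and JUND are above 0 in all 6 groups with the shortest bars of the upward genes, and FOSL2 in BMP2 lies between 3.71 and 4.64. FOSL1 is below 0 in all 6 groups, and FOS and IER2 have no group more than 0.01 above 0.

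Counted against the threshold used for all genes (edgeR quasi-likelihood test, Benjamini-Hochberg adjusted p under 0.05), the 10 genes stood as follows, and nothing is read from these counts because the genes were chosen on these data. At RA day 5, 4 were past it as higher than day 0 and 0 as lower, beside 5.59% and 2.72% of all tested genes. At RA day 10 it was 4 and 0 beside 12.9% and 11.1%, and at RA day 21 it was 5 and 1 beside 23.4% and 21.1%. For BMP2 it was 5 and 1 at day 5 beside 15.9% and 13.4%, 5 and 0 at day 10 beside 19.8% and 16.4%, and 6 and 1 at day 21 beside 25% and 22.1%. FOSL2 was past it as lower in RA than in BMP2 on all 3 days, with JUNB also lower and FOSB higher at day 5. Of all genes, 5.97% were higher and 6.25% lower in RA for day 5, 5.11% and 5.73% for day 10, 5.99% and 6.07% for day 21. The median log2 difference of the 10 from day 0 was 1.07, 1.17 and 1.61 with RA and 1.18, 1.43 and 1.83 with BMP2, while the median of all tested genes was between -0.0016 and 0.096.

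The 2 libraries of a group agreed to different degrees. At RA day 21 none of the 10 genes differed by 2-fold between replicates, where 6.48% of all tested genes did. There were 2 such genes at day 0 (FOSB, FOSL1; 13.7% of all genes), 4 at RA day 5 (FOSB, FOSL1, FOSL2, ATF3; 16.6%), 5 at RA day 10 (FOS, FOSL1, FOSL2, ATF3, EGR1; 16.6%), 2 at BMP2 day 5 (FOSL1, EGR1; 19.4%), 3 at BMP2 day 10 (FOS, FOSL1, EGR1; 33.5%) and 5 at BMP2 day 21 (FOS, FOSB, FOSL1, ATF3, EGR1; 16.5%). FOSL1 was in every one of these sets but RA day 21, and JUN, JUNB, JUND and IER2 were in none. These genes were counted by the ratio of CPM, but the shares of all genes by log2 CPM with a prior count of 2. On that log2 scale the FOSL1 gap at BMP2 day 5 was -0.99, just short of 2-fold (2.01 times by CPM).

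The direction of the gaps was shared by most of these genes within some pairs. The share of all tested genes higher in either replicate was not computed. Whether these directions are particular to the 10 genes thus cannot be told. At BMP2 day 21 all 10 genes were higher in replicate 1, most of all FOSB (13.0 times; 0.308% of tested genes differed as much there) and FOS (4.24 times; 4.13%). At RA day 5, 9 of 10 were higher in replicate 1, EGR1 being the exception. At RA day 10 FOSL1, FOSL2 and ATF3 were higher in replicate 2 while FOS and EGR1 were higher in replicate 1. Over the 7 groups FOSL1 and FOSL2 were higher in the same replicate in 7, as were FOS and IER2, the highest number among all pairs of the 10. Over the 14 libraries, however, the Pearson correlation of log2 CPM was -0.08 for FOSL1 with FOSL2 and 0.33 for FOS with IER2. EGR1 shared the higher replicate with FOSL1, FOSL2, ATF3 and JUND in 2 of 7 each.

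Marker sums of other cell types were compared with these gaps by the replicate in which each was higher. The same comparison was not made for other genes, so a high number cannot be called particular to these 10. The sum of the 5 smooth muscle markers was higher in the same replicate as FOSL1 and as FOSL2 in 7 of 7 groups, as JUNB in 6, as FOSB, JUND and ATF3 in 5, as FOS, JUN and IER2 in 4 and as EGR1 in 2. It was 35.3 and 88.8 CPM in untreated replicates 1 and 2, 258 and 40.4 at RA day 5, 105 and 286 at RA day 10, 83.5 and 121 at RA day 21, and with BMP2 1278 and 559, 641 and 1242, and 485 and 338 in order of day. Most of it was TAGLN and, with BMP2, ACTA2. The sum of the 5 fibroblast markers was higher in the same replicate as JUNB in 7 of 7 groups, as FOSL1, FOSL2 and JUND in 6, as FOS, JUN and IER2 in 5, as FOSB and ATF3 in 4 and as EGR1 in 3, with 347 and 72.5 CPM at RA day 5 and 1619 and 630 at RA day 10. The 4 blood and endothelial markers measured, of 5 listed, summed to at most 12.3 CPM. The 13 heat shock and stress genes tested summed to 5134 and 5120 CPM in BMP2 day 21 replicates 1 and 2, and 8 of the 13 were higher in replicate 2 (median log2 gap 0.14). The keratinocyte sum was higher in the same replicate as FOS and as IER2 in 6 of 7 groups and as each of the other 8 genes in 3 or 4. For the embryonal carcinoma, neuron and blood and endothelial sums the number was 0 to 4 for each of the 10. It was 0 for the neuron sum with FOSB, which were thus higher in opposite replicates in all 7 groups. It was 1 for the embryonal carcinoma sum with JUND and for the blood and endothelial sum with FOSB. Keratinocyte marker TP63 was at 36.3 CPM in BMP2 day 5 replicate 2 and 33.1 in BMP2 day 10 replicate 1, the BMP2 libraries of those days with the higher EGR1 and FOS, and at 4.28 and 0.0224 in their partners. KRT5 was at 0 in all 4 of these libraries and KRT14 at most 0.536. The part of these cell types in the gaps was not tested.

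**Figure D3:**
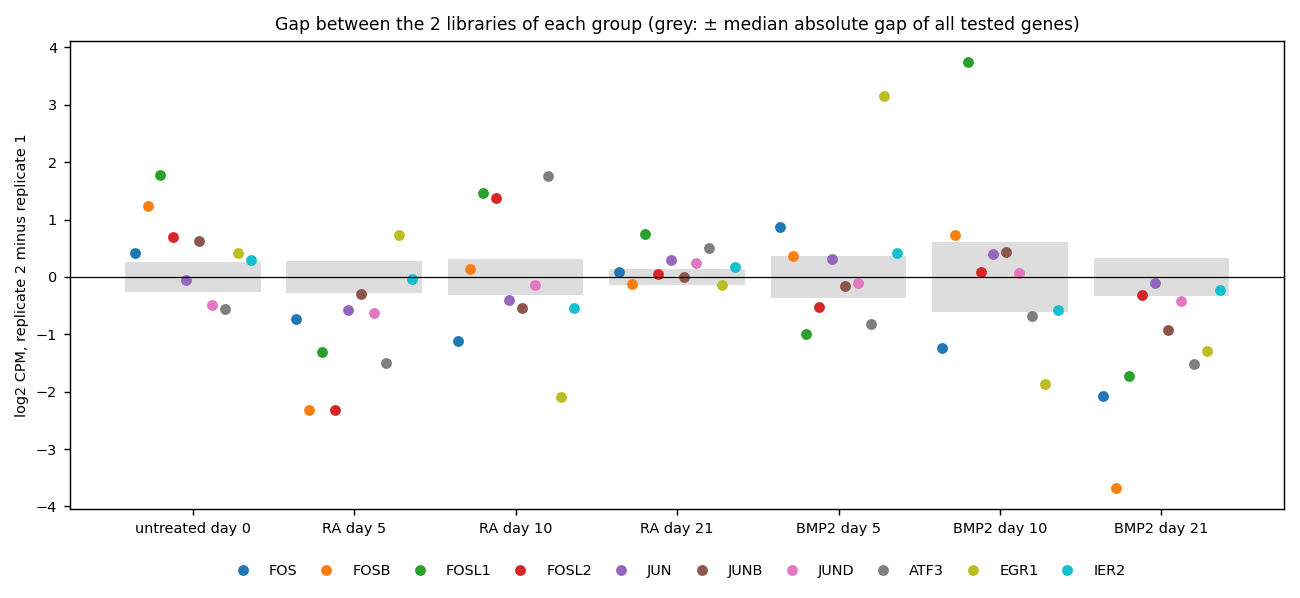
Log2 CPM of replicate 2 minus replicate 1 for each gene and group (points), with grey boxes of plus and minus the median absolute gap of all 19142 tested genes. At BMP2 day 21 all 10 points are below 0, at RA day 21 all lie within 1 of 0, and the points farthest from 0 are FOSL1 at BMP2 day 10, FOSB at BMP2 day 21 and EGR1 at BMP2 day 5.

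Across the 14 libraries, as a description with no test, log2 CPM of JUN and JUNB had the highest correlation of any pair of the 10 (Pearson r = 0.87), followed by FOSL2 and ATF3 (0.81), JUN and JUND (0.77) and JUNB and JUND (0.76). FOSL2 and IER2 were the most opposed (r = -0.86). FOS had no r above 0.42 with another of the 10. The points share library, depth and group, and 2 libraries of a group are not independent of its treatment. Among 11858 genes with a mean of at least 5 CPM, the pattern most like JUN was that of TBX2 (0.96), NR2F2 (0.96) and PCDHB2 (0.95), and most like ATF3 that of CSRNP1 (0.95), EDN1 (0.95) and TEAD3 (0.93). FOSL1 was most like ATP6V0A2 (0.94), TRIM35 (0.90) and TOR3A (0.89), EGR1 most like IFT140 (0.90), MINDY1 (0.89) and SIRT3 (0.87), and FOS most like ZNF331 (0.82), RGS2 (0.81) and METTL7A (0.80).

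Around the 10 genes, 138 others of the pathway were listed in 6 groups, of which 134 were tested. These were 22 bZIP partners, 36 other immediate early genes, 25 genes of the serum response and MAP kinase input, 18 feedback inhibitors, 20 AP-1 target genes and 13 heat shock and stress genes. Against day 0, 12 rose and 10 fell at RA day 5, 22 and 19 at RA day 10, and 29 and 26 at RA day 21 (edgeR, adjusted p under 0.05). With BMP2 the numbers were 27 and 16 (day 5), 40 and 18 (day 10) and 52 and 21 (day 21). In shares this was 16.4%, 30.6% and 41.0% of the tested pathway genes with RA beside 8.31%, 24% and 44.6% of all genes, and 32.1%, 43.3% and 54.5% with BMP2 beside 29.2%, 36.3% and 47.1%. The RA shares were thus above the background at days 5 and 10 and below it at day 21. The 6 lists were chosen with earlier results of these data known, so nothing is read from shares above or below the background. Of 203 changes that the naming rule picked, 79 kept their call under each alternative, and the genes named below are from those unless a library is named; that narrowing was made after the values were seen.

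These counts changed when single libraries were left out, and the share of all genes called was kept for the main fit alone. Leaving out a library of a compared group leaves 1 library there and fewer degrees of freedom. A lower count then does not by itself mark that library as unlike the others. Whether a shift concerns the pathway genes or all genes thus cannot be told, nor whether a count stays above the background. Without untreated replicate 1 or 2 the number called was 7 or 6 in place of 22 at RA day 5, 22 or 18 in place of 41 at RA day 10, 36 or 31 in place of 58 at BMP2 day 10, and 46 or 47 in place of 73 at BMP2 day 21. It was 28 in place of 43 at BMP2 day 5 without untreated replicate 2. Without its own replicate 1 or 2 the RA day 5 count was 7 or 14, it was 13 without either RA day 21 library, and the RA day 10 count was 23 without RA day 10 replicate 1. Without both BMP2 day 10 libraries, which stand apart from each other, it was 36, 48 and 65 for RA at days 5, 10 and 21 and 60 and 82 for BMP2 at days 5 and 21.

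**Figure D4:**
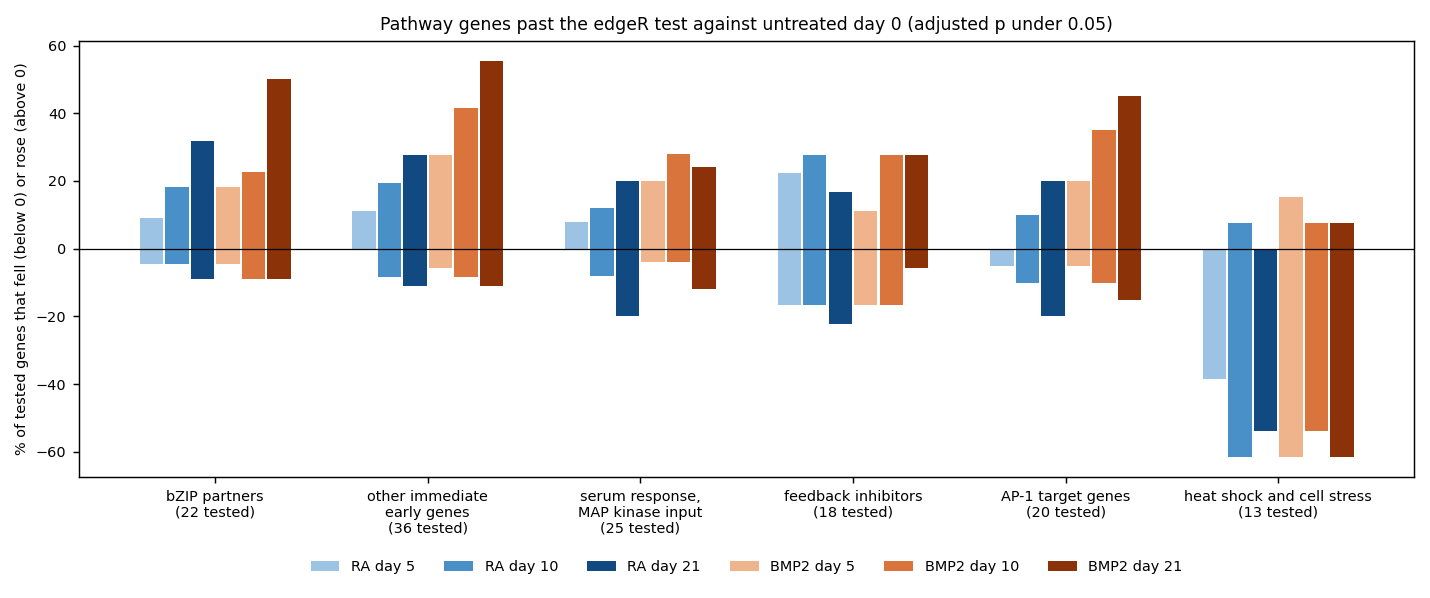
Share of the tested genes of each of the 6 lists that rose (above 0) or fell (below 0) against untreated day 0 (edgeR, adjusted p under 0.05), for RA (blue) and BMP2 (orange), darker with time. The tallest upward bar is that of the other immediate early genes at BMP2 day 21 (20 of 36), and the heat shock and stress list has its longest bars below 0 in all 6 comparisons.

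Among bZIP partners, proteins that pair with or compete with Jun and Fos, 2, 4 and 7 of 22 rose with RA at days 5, 10 and 21 and 1, 1 and 2 fell, while 4, 5 and 11 rose with BMP2 and 1, 2 and 2 fell. JDP2, a repressor that pairs with Jun, was at 9.35 and 5.29 CPM untreated and 41.3 to 63.2 in the 6 BMP2 libraries, a log2 rise of 2.84 ± 0.47 at day 5 (adjusted p = 0.0022, edgeR), 2.69 ± 0.47 at day 10 and 2.67 ± 0.47 at day 21. In RA, JDP2 was at 34.4 and 15.8 CPM (day 5), 8.22 and 17.9 (day 10) and 32.0 and 36.4 (day 21). Its RA minus BMP2 difference at day 5 was -1.06 ± 0.44 (adjusted p = 0.14, edgeR). BACH2, a bZIP repressor best known from lymphocytes, rose from 4.26 and 3.53 CPM to 29.7 and 30.3 at RA day 21 (2.94 ± 0.37; adjusted p = 0.00026) and to 21.4 and 24.7 at BMP2 day 21 (2.57 ± 0.36; adjusted p = 0.00041). NFE2L3, a relative of the antioxidant factor NRF2, fell from 323 and 294 CPM to 26.9 and 37.6 at RA day 10 (-3.26 ± 0.37; adjusted p = 0.00056) and to 14.4 and 24.3 at BMP2 day 5 (-4.00 ± 0.39; adjusted p = 0.00023). MAFK, a small Maf protein, rose at RA day 21 by 2.44 ± 0.43.

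The other immediate early genes rose in 4, 7 and 10 of 36 with RA and 10, 15 and 20 of 36 with BMP2 at days 5, 10 and 21, and fell in 0, 3 and 4 with RA and 2, 3 and 4 with BMP2. Where edgeR called 0 as lower, at RA day 5, 4 had an unadjusted p under 0.05 and DESeq2 called 3. Their median log2 difference was 0.82 at RA day 21 and 1.95 at BMP2 day 21, beside 0.10 and 0.04 over all tested genes. IER5L, a relative of IER2, was at 0.690 and 1.54 CPM untreated, 20.5 to 39.0 with RA and 8.21 to 16.5 with BMP2, and its log2 rise was 4.72 ± 0.48 at RA day 5 (adjusted p = 0.00057) and 3.43 ± 0.45 at BMP2 day 5 (adjusted p = 0.00078). BTG2, an antiproliferative gene, reached 323 and 298 CPM at RA day 21 from 6.65 and 14.5 (4.87 ± 0.55; adjusted p = 0.00018). HBEGF, an EGF receptor ligand, rose at BMP2 day 21 to 66.5 and 41.7 CPM from 2.60 and 3.45 (4.16 ± 0.96; adjusted p = 0.0056). GADD45B, a stress sensor, rose at BMP2 day 5 to 107 and 45.8 CPM from 6.90 and 10.3 (3.15 ± 0.62; adjusted p = 0.0049). In the other direction, MYC fell from 55.7 and 86.6 CPM to 13.2 and 16.9 at RA day 21 (-2.24 ± 0.47; adjusted p = 0.0038) and 18.0 and 13.3 at BMP2 day 21 (-2.19 ± 0.47; adjusted p = 0.0038). KLF4 fell at RA day 21, from 19.3 and 32.6 to 0.896 and 0.674 CPM (-5.04 ± 0.93; adjusted p = 0.0019).

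In the input arm that carries growth factor signals to SRF, the ribosomal S6 kinases moved apart. RPS6KA3 (RSK2) rose from 64.1 and 72.0 CPM to 259 and 277 at RA day 21 (1.98 ± 0.26; adjusted p = 0.00037) and 356 and 283 at BMP2 day 21 (2.23 ± 0.27; adjusted p = 0.0002). RPS6KA1 (RSK1) fell from 70.0 and 72.5 CPM to 13.7 and 14.2 at RA day 21 (-2.35 ± 0.22; adjusted p = 9.2e-05) and 21.7 and 26.7 at BMP2 day 21 (-1.56 ± 0.21; adjusted p = 0.00036). MKL2 (MRTFB), an actin-regulated SRF partner, rose at RA day 21 by 1.63 ± 0.13 (adjusted p = 5.8e-05), and MAPK3 (ERK1) by 1.55 ± 0.25 there and 1.59 ± 0.25 at BMP2 day 21. Of the 25 genes, 2, 3 and 5 rose and 0, 2 and 5 fell with RA, and 5, 7 and 6 rose and 1, 1 and 3 fell with BMP2. For the 0 that edgeR called lower at RA day 5, the number was 1 at an unadjusted p under 0.05 and 1 by DESeq2.

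Feedback inhibitors, which shut the same pathway off, went both ways: 4, 5 and 3 of 18 rose and 3, 3 and 4 fell with RA, and 2, 5 and 5 rose and 3, 3 and 1 fell with BMP2. NAB2, the EGR1 corepressor, was at 19.1 and 19.3 CPM untreated and 69.2 and 60.3 at RA day 21 (1.75 ± 0.31; adjusted p = 0.0016), and it rose to 68.2 and 54.9 at BMP2 day 5 (1.68 ± 0.31; adjusted p = 0.0039), where EGR1 itself stood at 1.14 and 10.5. NAB1 rose at RA day 21 by 2.06 ± 0.36 and at BMP2 day 5 by 2.02 ± 0.36. SPRY4, an inhibitor of receptor tyrosine kinase signalling, fell from 74.9 and 99.1 CPM to 20.2 and 14.3 at RA day 5 (-2.33 ± 0.31; adjusted p = 0.0022) and to 38.3 and 20.7 at BMP2 day 21 (-1.56 ± 0.30; adjusted p = 0.0023). SPRED2, an inhibitor of the MAP kinase cascade, was at 32.8 and 30.3 CPM untreated and 92.8 and 113 at RA day 5 (1.71 ± 0.24; adjusted p = 0.0028).

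Genes known as AP-1 targets rose in 0, 2 and 4 of 20 with RA and 4, 7 and 9 with BMP2, and fell in 1, 2 and 4 with RA and 1, 2 and 3 with BMP2. At RA day 5, where 0 rose by edgeR, 4 were higher at an unadjusted p under 0.05 and 4 by DESeq2. AXL, a receptor tyrosine kinase, rose from 12.8 and 13.5 CPM to 138 and 71.8 at BMP2 day 5 (2.995 ± 0.54; adjusted p = 0.0034), 85.5 and 199 at day 10 (3.44 ± 0.55; adjusted p = 0.0015) and 88.2 and 80.7 at day 21 (2.68 ± 0.53; adjusted p = 0.0026). TGFB1 rose at BMP2 day 5 by 2.80 ± 0.51. It was at 36.7 to 77.9 CPM in the 6 BMP2 libraries and 15.3 to 47.5 in the 6 RA libraries, against 9.755 and 10.0 untreated. AXL was at 19.5 to 55.8 CPM in the RA libraries. HMGA1, a chromatin protein of undifferentiated cells, fell from 1301 and 1368 CPM to 165 and 161 at RA day 21 (-3.03 ± 0.37; adjusted p = 0.00025) and 124 and 70.4 at BMP2 day 21 (-3.78 ± 0.38; adjusted p = 0.00011). SPP1, which encodes osteopontin, fell at BMP2 day 21 from 141 and 291 to 6.32 and 10.9 CPM (-4.65 ± 0.80; adjusted p = 0.0011).

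Heat shock and stress genes fell in 5, 8 and 7 of 13 with RA and 8, 7 and 8 with BMP2, and rose in 0, 1 and 0 and in 2, 1 and 1. On each of the days with 0 by edgeR, RA days 5 and 21, 1 was higher at an unadjusted p under 0.05 and 0 by DESeq2. HSPD1, the mitochondrial chaperonin, was at 2236 and 2657 CPM untreated, 668 and 647 at RA day 21 (-1.90 ± 0.20; adjusted p = 0.00014) and 591 and 533 at BMP2 day 21 (-2.12 ± 0.20; adjusted p = 8.1e-05). The metallothionein MT1X fell in all 6 comparisons, from 25.1 and 23.6 CPM to between 1.67 and 5.25. BAG3, a cochaperone of muscle, rose from 16.3 and 18.0 CPM to 45.2 and 37.1 at BMP2 day 5 (1.26 ± 0.21; adjusted p = 0.0021) and to 47.8 and 56.9 at day 21 (1.61 ± 0.21; adjusted p = 0.00028). Metallothioneins, chaperones and HMGA1 have near-identical copies or pseudogenes, and overlap with other genes was checked for the first 10 genes only, so these values carry that uncertainty.

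Between the treatments fewer pathway genes differed, 16 of 134 at day 5 (5 higher and 11 lower in RA), 14 at day 10 (2 and 12) and 15 at day 21 (4 and 11), or 11.9%, 10.4% and 11.2% beside 12.2%, 10.8% and 12.1% of all genes. These shares were near the background. SPRED2 was higher in RA at day 5, with 92.8 and 113 CPM against 21.1 and 36.2 (1.84 ± 0.24; adjusted p = 0.0022), and was the only one of these differences to keep its call under each alternative. KLF6, an immediate early zinc finger gene, was lower in RA at day 21, with 34.6 and 43.9 CPM against 226 and 136 (-2.21 ± 0.34; adjusted p = 0.0045), and the adjusted p was 0.064 without RA day 21 replicate 1. ELK3, a ternary complex partner of SRF, was lower too, with 37.5 and 49.7 CPM against 140 and 117 (-1.56 ± 0.28; adjusted p = 0.0092), and 0.10 without the same library. The count at day 5 was 1 without RA day 5 replicate 2, 5 and 9 without BMP2 day 5 replicates 1 and 2, and 36 and 34 without BMP2 day 10 replicates 1 and 2. At day 10 it was 1 and 5 without RA day 10 replicates 1 and 2, 4 without either RA day 21 library, 5 without either untreated one and 40 without BMP2 day 10 replicate 1. At day 21 it was 1 and 2 without RA day 21 replicates 1 and 2, 7 and 9 without BMP2 day 21 replicates 1 and 2, and 38 without either BMP2 day 10 library. Without both BMP2 day 10 libraries 37 genes differed at day 5 and 39 at day 21. The share of all genes that differed was not kept for these fits.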

How the data were processed

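Total RNA of NT2 cells was sequenced on an Illumina instrument, per the labels, in 7 groups of 2 libraries. Titles gave group and replicate, also for RA day 21, whose descriptions number the libraries otherwise. The authors deposited raw counts of 25952 genes, used here for every test. The second deposited table holds RPKM, which the authors scaled to the whole gene span: the length it implies equalled the GENCODE v29 span within 1% for 89.0% of 5814 genes with at least 1000 counts in each library. RPKM served only as an alternative order of groups. Per the submitters' processing notes STAR, featureCounts, DESeq2 and hg19 were used, with no versions or roles. Counting options, strand among them, are unknown here. Symbols came from a reference list (25214 identifiers) and GENCODE v29 (58). The other 680 had none.

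Counts were fitted with edgeR 4.0.16 in R 4.3.3: group means over 14 libraries, TMM factors, a low-count filter (filterByExpr, minimum count 10; 19142 genes, all 10 genes among them) and quasi-likelihood F tests with Benjamini-Hochberg adjustment over all genes in each of 9 comparisons. Degrees of freedom were 7 residual and 3.08 prior. SE is the log2 fold change divided by the square root of F, so it rests on each gene's spread over all 14 libraries. The fit was first run on simulated counts with the same spread for every gene and changes in a single group. That run does not cover a group whose libraries stand apart, such as BMP2 day 10. The 10 genes and the 6 lists were chosen with earlier results of these data known. Named pathway genes are the 3 largest called changes per list, direction and comparison with at least 1 CPM, and for likeness the 3 highest r among genes of at least 5 CPM. Some genes that fit the rule are not reported here and are left out of the 203 named changes, though they count in the list totals. Alternatives were RLE factors, no filter, CPM of at least 1 in 2 libraries, a replicate block, only the 4 libraries compared, DESeq2 1.42.0, leaving out each library, and, added after the data were seen, leaving out both BMP2 day 10 libraries. Motifs were searched with Python 3.11.15 and pandas 2.3.3. Figures were made with matplotlib 3.10.9.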

Additional observations from a re-analysis of the deposited data

Results flagged for a closer look

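A difference between the changes under RA and under BMP2, tested directly between the treated groups (edgeR, adjusted p under 0.05), was found for 16 of the 134 pathway genes tested at day 5, 14 at day 10 and 15 at day 21. All 3 comparisons have the day 0 level in common, which drops out of the difference. These shares were near those of all tested genes (12.2%, 10.8% and 12.1%).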

How the results depend on the processing

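The number of pathway genes called depended on the fit. DESeq2 called 37 at RA day 5 against day 0 and 38, 41 and 35 between the treatments at days 5, 10 and 21, where edgeR called 22, 16, 14 and 15. The fit of only the 4 libraries compared called 40 at RA day 5, 83 at RA day 21 and 12 at BMP2 day 10 against day 0, and 0 and 43 between the treatments at days 10 and 21 (31 had an unadjusted p under 0.05 at day 10). Without the low-count filter 24 differed between the treatments at day 10. Without both BMP2 day 10 libraries, a setting chosen after the data were seen, the count was 36 at RA day 5 and 37 and 39 between the treatments at days 5 and 21. Leaving out 1 library at a time gave 6 to 36 at RA day 5, 18 to 48 at RA day 10, 38 to 65 at RA day 21, 28 to 62 at BMP2 day 5, 31 to 60 at BMP2 day 10 and 46 to 82 at BMP2 day 21, and 1 to 36, 1 to 40 and 1 to 38 between the treatments. In a replicate block fit the counts against day 0 were 21, 39 and 50 for RA and 41, 53 and 67 for BMP2, and 14, 8 and 15 between the treatments. Libraries with the same number did not deviate together (correlations of -0.34 to 0.15 over 21 pairs of groups), so the numbers were not taken to pair them. The cause of these shifts was not tested. With no share of all genes kept for the alternative fits, shifts of the pathway genes cannot be told from shifts of all genes. The 10 genes' fitted differences moved by more than 1 SE in 62 of 360 fits that left out a library of a compared group; the other 900 left out a library of neither group, which bears little on the value. By mean deposited RPKM, FOSB, FOSL2 and EGR1 kept all 7 groups in the same order, and in the other 7 genes at least 2 groups changed place, by at most 2 places. The highest group then became untreated day 0 for FOS, RA day 21 for JUNB and RA day 10 for IER2, and the lowest stayed as it was for all 10. With 2 libraries a group, small differences can be missed.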
